A study of Homo sapiens with 6 samples.

Results

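The genes described here are 45 genes of the endoplasmic reticulum (ER) that encode chaperones, the protein translocation channel and ER-associated degradation (ERAD), chosen by function from the 58735 genes of the count table. All 45 were found by symbol, and 44 had enough counts to be tested, among 13958 tested genes. They were compared between VCaP cells that carry a short hairpin RNA against NEDD9 (shNEDD9, 3 libraries) and VCaP cells that carry a non-targeting hairpin (shNTC, 3 libraries). VCaP is a human prostate cancer cell line with a TMPRSS2-ERG gene fusion. Both lines were made by stable infection and grown with 10% foetal bovine serum, and each group is 1 infected line under 1 hairpin name, so that effects of the hairpin other than loss of NEDD9 cannot be told apart from it. The design text calls the 3 libraries of a group biological replicates, and nothing more was given on whether they came from separate infections. P-values therefore speak only for the spread among libraries, part or all of which may be technical. That spread was small, with a common coefficient of biological variation of 1.65% in edgeR.

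Proteins that are secreted or sit in membranes enter the ER through the SEC61 channel, are folded there by chaperones, disulfide isomerases and glycan-binding lectins, and leave in COPII vesicles. Proteins that fail to fold are drawn back to the cytosol and degraded, which is ERAD. When unfolded proteins build up, the sensors ATF6, IRE1 (gene ERN1) and PERK (gene EIF2AK3) start the unfolded protein response. ATF6, and XBP1 once IRE1 has spliced its mRNA, then raise chaperone and ERAD genes, while PERK acts through the translation factor eIF2 alpha and ATF4. Secretory epithelia such as the prostate depend on this machinery.

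ATF6 and XBP1 are known to bind ER stress elements, so the promoters that hold such an element are shown first. The ER stress element (ERSE) was searched as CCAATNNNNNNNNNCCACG and the related ERSE-II as ATTGG and CCACG with 1 base between them, on both strands, in RefSeq windows of GRCh38.p14 from 250 bases before to 50 bases after the gene start. Windows were found for 38 of the 45 genes. ERSE letters were present in 7 of these 38 windows (18.4%), against 22 of all 27305 windows (0.0806%) and 0.136% of the windows of tested genes. ERSE-II letters were present in 3 (7.89%), against 0.0549% of all windows and 0.107% of those of tested genes. The chaperones were picked as genes of the ATF6 and XBP1 arm, whose factors bind these elements. The high shares thus follow from the choice of genes and are no separate finding. The 10 matching windows follow, cut to bases before the start, 5′ to 3′ in the direction of the gene. Capitals mark the fixed letters of each match, those of the reverse strand included.
XBP1 (ERSE, chr22:28800593-28800631, minus strand): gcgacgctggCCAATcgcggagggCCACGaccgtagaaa
CANX (ERSE, chr5:179698768-179698806, plus strand): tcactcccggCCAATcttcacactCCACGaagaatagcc
HSP90B1 (ERSE on each strand, chr12:103930206-103930349, plus strand): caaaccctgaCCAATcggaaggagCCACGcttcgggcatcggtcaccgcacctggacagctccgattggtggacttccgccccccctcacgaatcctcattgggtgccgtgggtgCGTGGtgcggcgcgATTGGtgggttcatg
CALR (ERSE, reverse strand, chr19:12938374-12938412, plus strand): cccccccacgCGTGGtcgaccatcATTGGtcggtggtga
CRELD2 (ERSE, reverse strand, chr22:49918544-49918582, plus strand): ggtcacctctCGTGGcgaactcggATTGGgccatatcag
HSPA5 (ERSE, chr9:125241381-125241419, minus strand): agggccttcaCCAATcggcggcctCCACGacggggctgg
ERO1B (ERSE, reverse strand, chr1:236282173-236282208, minus strand): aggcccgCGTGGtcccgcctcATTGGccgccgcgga
HERPUD1 (ERSE-II, and a C/EBP-ATF element on the reverse strand, chr16:56931956-56932045, plus strand): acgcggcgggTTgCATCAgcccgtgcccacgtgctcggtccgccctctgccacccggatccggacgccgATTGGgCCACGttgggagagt
SDF2L1 (ERSE-II, reverse strand, chr22:21642104-21642134, plus strand): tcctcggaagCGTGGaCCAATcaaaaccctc
HYOU1 (ERSE-II at 2 positions, reverse strand, chr11:119057264-119057403, minus strand): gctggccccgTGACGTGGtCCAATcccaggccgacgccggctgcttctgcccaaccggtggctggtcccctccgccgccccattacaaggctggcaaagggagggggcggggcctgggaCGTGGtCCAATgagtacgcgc

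In HYOU1 the upstream ERSE-II overlaps the letters TGACGTGG, the core of the unfolded protein response element, which were found in 2 of the 38 windows, against 0.795% of all windows and 0.923% of those of tested genes. HERPUD1 was the only gene of the 38 whose window also held TGATGNAA, the C/EBP-ATF element that ATF4 is known to bind. That is 2.63% of the members' windows, against 3.67% of all windows and 1.603% of those of tested genes. A match of letters is a description and does not show that a factor was bound.

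Before the comparison, the libraries were checked. NEDD9 stood at 137.1, 138.0 and 135.9 CPM (counts per 1000000 of a library, scaled with TMM factors) in the shNEDD9 libraries, against 362.3, 339.3 and 365.4 CPM in the shNTC libraries, a 2.62-fold decrease (edgeR log2 fold change -1.39, SE 0.04). Total counts ranged from 5956486 to 9902002 in shNEDD9 and from 3217276 to 7492244 in shNTC. All 11 prostate and VCaP markers were detected, including KLK3 and ERG. Of 15 markers of other cell types, CDH5, CD68, CD3E and KRT5 had 0 counts in every library. At an adjusted p under 0.05, 3 of the 11 prostate and VCaP markers were higher and 6 lower in shNEDD9, against 35.5% and 35.9% of all tested genes. Their log2 fold changes ran from -1.68 to 1.75. Only 4 of the 15 markers of other cell types had enough counts to be tested, and 1 was higher and 1 lower. The log2 fold changes of these 4 ran from -0.55 to 1.24. The 15 markers of other cell types summed to 54.2 to 59.1 CPM in shNEDD9, against 29.5 to 39.3 CPM in shNTC, mostly LUM, and their part in the results below was not tested.

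The ER genes moved in both directions and by small amounts. At an adjusted p under 0.05, 21 of the 44 tested genes were higher and 18 lower in shNEDD9, which is 88.6%, against 71.4% of all tested genes in the same comparison (35.5% higher and 35.9% lower). Changes of at least 1.5-fold were made by 9 of the 44, or 20.5%, against 35.8% of all tested genes. Their median log2 fold change was 0.12, against 0.00 for all tested genes, and became 0.0603 once a fit on transcript length and GC content was subtracted. Their median absolute log2 fold change was 0.30, against 0.42. These genes are well measured, with a median of 72.9 CPM against 28.9 CPM for all tested genes, and the part of depth in their share of calls was not tested. The 2 groups did not overlap in the same 39 genes, again 88.6% of the 44, against 71.8% of all tested genes. This adds no separate support to the calls. In bulk RNA, a smaller share of cells with a transcript and less transcript per cell cannot be told apart.

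**Figure D1:**
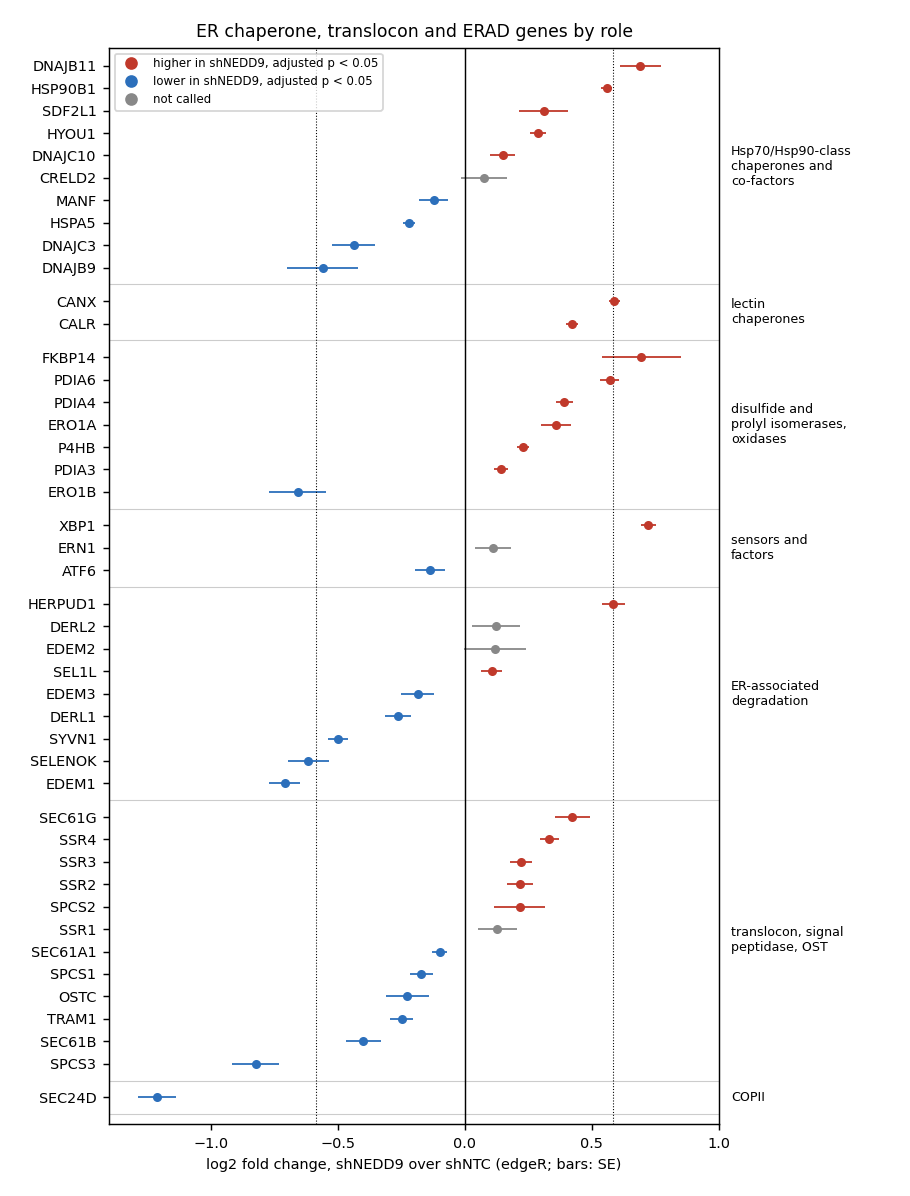
Log2 fold change, shNEDD9 over shNTC, of the 44 tested ER genes by role (x axis, edgeR, bars are SE, dotted lines mark 1.5-fold). XBP1 (0.72), FKBP14 (0.69) and DNAJB11 (0.69) lie close together at the right, and SEC24D lies at -1.21. FKBP14 or DNAJB11 lay above XBP1 in 3 of the 6 fits that leave out 1 library. Lectins and isomerases sit mostly right of 0, while ERAD genes lie on both sides of it.

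The summed level of the 45 genes was higher in shNEDD9, at 11363, 11148 and 11158 CPM, against 9182, 9273 and 9316 CPM in shNTC. CANX, HSP90B1, CALR, P4HB and HSPA5 supplied 60.3 ± 0.35% of this sum in shNEDD9 and 56.3 ± 0.32% in shNTC (SD, n = 3 each). The sum of the 2 lectin chaperones was 3285 ± 32.0 CPM in shNEDD9 and 2304 ± 29.1 CPM in shNTC. The sum of the ERAD genes was lower, at 733.3 ± 7.37 CPM against 793.8 ± 9.61 CPM, and the sum of the translocation genes overlapped between the groups, at 1237 ± 11.9 CPM against 1227 ± 4.51 CPM.

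Per kilobase of annotated exon, which puts genes of different length on 1 scale, CALR had the highest level, 529.4 ± 11.3 CPM per kb in shNEDD9 and 395.8 ± 6.34 CPM per kb in shNTC (SD, n = 3 each). HSP90B1 came second in both groups, at 340.8 ± 8.84 and 230.9 ± 3.64 CPM per kb. In shNEDD9 the order went on with CANX (296.4 ± 1.27), P4HB (226.8 ± 5.77), HSPA5 (174 ± 3.51) and XBP1 (170.5 ± 1.40 CPM per kb), the last pair being within their spread. In shNTC, HSPA5 (203.1 ± 4.99), CANX (197.3 ± 2.02) and P4HB (193.8 ± 5.47 CPM per kb) came next, with neighbours within their spread, and were followed by PDIA3 (105.3 ± 2.64) and XBP1 (103.1 ± 2.80 CPM per kb), also within their spread. The lowest tested level was that of FKBP14, at 2.28 ± 0.19 CPM per kb in shNEDD9 and 1.40 ± 0.11 in shNTC. The median gene of the 44 stood at percentile 80.4 of all tested genes. Exon lengths cover every annotated transcript, so the level of a gene with many rare exons, such as DNAJC10, is understated.

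Among the chaperones and their co-factors, 5 of 10 rose and 4 fell (35.5% and 35.9% of all tested genes). HSPA5, which encodes BiP, the Hsp70 of the ER (ENSG00000044574, GRCh38 chromosome 9, 125234853 to 125241330), had 695.2, 668.3 and 677.0 CPM in shNEDD9 libraries, against 795.3, 812.2 and 773.3 CPM in shNTC libraries. It fell by 0.22 on the log2 scale (SE 0.02, edgeR adjusted p = 4.32e-18), with every shNEDD9 library below every shNTC library. HSP90B1, which encodes GRP94, the Hsp90 of the ER (chromosome 12, 103930107 to 103953645), had 1646, 1566 and 1588 CPM in shNEDD9, against 1091, 1064 and 1096 CPM in shNTC. It rose 1.47-fold (log2 fold change 0.56, SE 0.02, edgeR adjusted p = 1.45e-131), so these partners, whose promoters both hold an ERSE, went opposite ways. Their ratio per kilobase was 1.97, 1.95 and 1.95 in shNEDD9, against 1.14, 1.09 and 1.18 in shNTC.

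**Figure D2:**
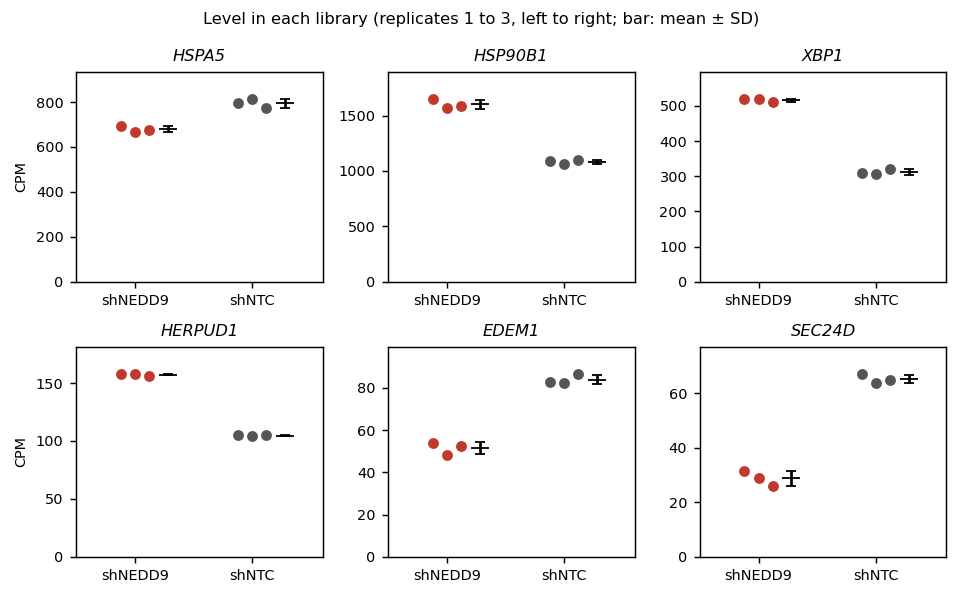
CPM of 6 ER genes in each library (y axis from 0; 3 points per group in replicate order, bar is mean ± SD, n = 3). The shNEDD9 points lie above the shNTC points for HSP90B1, XBP1 and HERPUD1, and below them for HSPA5, EDEM1 and SEC24D.

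The co-chaperones of BiP that carry a J domain also split. DNAJB11, which binds unfolded clients and passes them to BiP, had 52.9, 48.8 and 44.6 CPM in shNEDD9, against 27.7, 30.8 and 31.8 CPM in shNTC, a 1.61-fold increase (edgeR log2 fold change 0.69, SE 0.08). DNAJB9, a BiP co-factor that in mammalian cells represses IRE1, had 8.73, 10.3 and 9.78 CPM in shNEDD9, against 15.2, 14.8 and 13.0 CPM in shNTC, and fell by 0.56 on the log2 scale (SE 0.14). DNAJC3, which encodes the co-chaperone p58IPK, fell by 0.44 (SE 0.08), and DNAJC10, a J-domain protein with disulfide reductase activity, rose by 0.15 (SE 0.05). Each of these 4 calls held in all 14 refits and left-out libraries.

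HYOU1, a nucleotide exchange factor of BiP, rose by 0.29 on the log2 scale (SE 0.03), and SDF2L1, which keeps BiP clients from aggregating, rose by 0.31 (SE 0.10). CRELD2 stood at 29.7 ± 2.96 CPM in shNEDD9 and 28.3 ± 1.46 CPM in shNTC (SD, n = 3 each) and was not called (edgeR adjusted p = 0.469, log2 fold change 0.07). MANF, a secreted factor that stabilises BiP with its clients, had 72.3 ± 4.68 CPM in shNEDD9 and 78.5 ± 3.73 CPM in shNTC, at the edge of the threshold (log2 fold change -0.12, edgeR adjusted p = 0.0468). That adjusted p ranged from 0.0283 to 0.372 over the 14 refits, and the call was lost when shNEDD9 replicate 2 (edgeR adjusted p = 0.372) or shNTC replicate 3 (edgeR adjusted p = 0.302) was left out, among other settings.

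Both lectin chaperones, which hold glycoproteins while they fold, rose. Calnexin, CANX (chromosome 5, 179678628 to 179730925), had 1848, 1856 and 1840 CPM in shNEDD9, against 1216, 1235 and 1239 CPM in shNTC, a 1.503-fold increase (edgeR log2 fold change 0.59, SE 0.02, adjusted p = 4.52e-151). Calreticulin, CALR (chromosome 19, 12938578 to 12944489), had 1472, 1423 and 1416 CPM in shNEDD9, against 1055, 1088 and 1079 CPM in shNTC, a 1.34-fold increase (edgeR log2 fold change 0.42, SE 0.02, adjusted p = 1.74e-74). The groups lay far apart in both genes compared with the spread within them.

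Of 7 isomerase and oxidase genes, 6 rose and 1 fell (median log2 fold change 0.36), against 35.5% and 35.9% of all tested genes. PDIA6, a disulfide isomerase that also acts on the sensors IRE1 and PERK, had 258.3, 248.5 and 257.6 CPM in shNEDD9, against 171.5, 172.8 and 171.1 CPM in shNTC (log2 fold change 0.57, SE 0.04, edgeR adjusted p = 4.68e-53). The isomerase gene PDIA4 rose by 0.39 (SE 0.03), P4HB, which encodes protein disulfide isomerase itself, by 0.23 (SE 0.02), and PDIA3, the isomerase partner of the lectins, by 0.14 (SE 0.03). For PDIA3 the pseudogene PDIA3P1, with 330 counts against 19162 in all 6 libraries, may share reads. FKBP14, a prolyl isomerase that serves collagens, had 13.1, 11.1 and 12.3 CPM in shNEDD9, against 6.99, 7.23 and 8.14 CPM in shNTC, and rose 1.62-fold from a low level (log2 fold change 0.69, SE 0.16).

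The 2 ER oxidase genes, whose products recharge disulfide isomerases, moved apart. ERO1A rose by 0.36 on the log2 scale (SE 0.06), at 76.9, 76.7 and 79.4 CPM in shNEDD9, against 60.4, 60.6 and 61.0 CPM in shNTC. ERO1B fell by 0.66 (SE 0.11), at 14.8, 12.8 and 15.1 CPM in shNEDD9, against 23.0, 18.2 and 24.3 CPM in shNTC. ERO1A thus held 78.7, 80.9 and 78.8% of their summed CPM per kb in shNEDD9, against 65.1, 70.3 and 64.1% in shNTC, while that sum overlapped between the groups (12.9 ± 0.39 against 12.1 ± 0.61 CPM per kb).

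**Figure D3:**
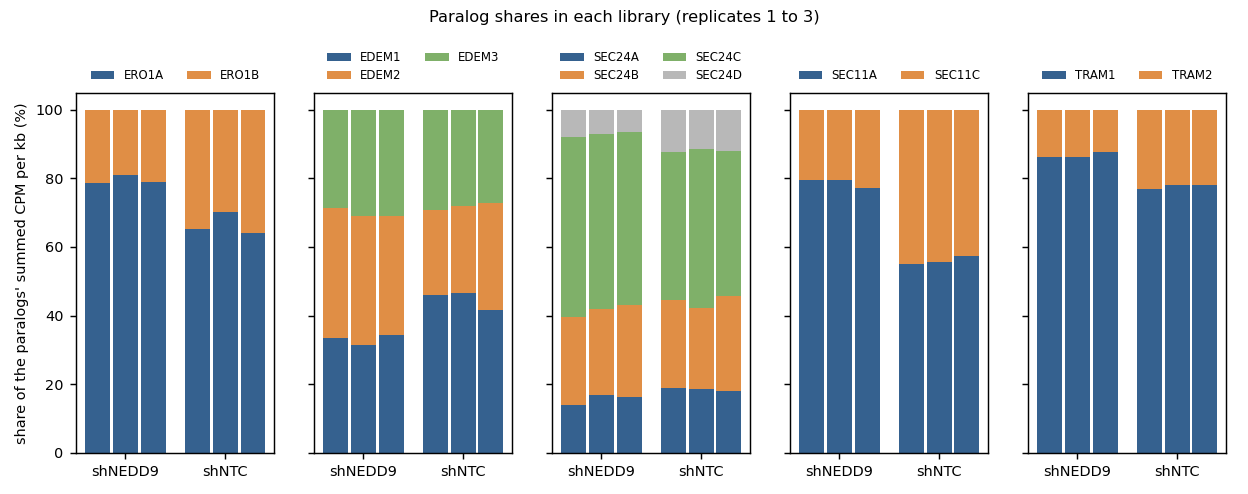
Share of each paralog in its family's summed CPM per kb (y axis, percent, from 0) in the 3 shNEDD9 and 3 shNTC libraries, 1 bar per library. ERO1A holds 79.5% on average in shNEDD9 and 66.5% in shNTC, and EDEM1 33.1% in shNEDD9 and 44.7% in shNTC.

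Of the sensor and factor genes, XBP1 rose, whose spliced mRNA encodes a transcription factor of the response. XBP1 (ENSG00000100219, chromosome 22, 28794555 to 28800597) had 519.0, 518.6 and 511.4 CPM in shNEDD9, against 309.2, 305.4 and 321.6 CPM in shNTC, a 1.65-fold increase (log2 fold change 0.72, SE 0.03, edgeR adjusted p = 6.59e-131). Counts per gene do not separate its spliced from its unspliced mRNA. ATF6 (chromosome 1, 161766294 to 161964070) had 65.0, 66.8 and 69.3 CPM in shNEDD9, against 71.8, 71.0 and 78.4 CPM in shNTC (log2 fold change -0.14, SE 0.06, edgeR adjusted p = 0.0267). Its adjusted p ranged from 0.0184 to 0.240 over the 14 refits, and the call was lost without shNEDD9 replicate 1 (edgeR adjusted p = 0.0926), shNEDD9 replicate 2 (edgeR adjusted p = 0.0708) or shNTC replicate 3 (edgeR adjusted p = 0.240), with library totals alone, without a count filter and with DESeq2. ERN1 had 52.9, 48.3 and 48.8 CPM in shNEDD9, against 48.7, 39.6 and 46.5 CPM in shNTC, the groups overlapped, and it was not called (edgeR adjusted p = 0.158, log2 fold change 0.11). The ratio of XBP1 to ATF6 per kilobase was 20.8, 20.2 and 19.2 in shNEDD9, against 11.2, 11.2 and 10.7 in shNTC.

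Of 9 tested ERAD genes, 5 were lower (55.6%) and 2 higher (22.2%), against 35.9% and 35.5% of all tested genes. Their median log2 fold change was -0.19, and the EDEM3 call among the 5 was lost in some refits. HERPUD1, a membrane protein that helps to assemble the HRD1 ubiquitin ligase complex (chromosome 16, 56932048 to 56944863), rose most of the 9. It had 157.6, 157.6 and 156.5 CPM in shNEDD9, against 105.2, 104.0 and 104.9 CPM in shNTC (log2 fold change 0.58, SE 0.05, edgeR adjusted p = 2.54e-37). SYVN1, which encodes the ligase HRD1, fell by 0.50 (SE 0.04), at 139.1, 144.5 and 137.5 CPM in shNEDD9, against 196.7, 206.4 and 195.3 CPM in shNTC. Its exons overlap those of FAU by 398 bases and those of MRPL49 by 356 bases, and neither of these neighbours was called (log2 fold changes 0.02 and 0.06).

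SEL1L, the adaptor that holds HRD1 and its substrates together, had 161.8, 173.1 and 165.9 CPM in shNEDD9, against 158.0, 153.6 and 153.2 CPM in shNTC (log2 fold change 0.11, SE 0.04, edgeR adjusted p = 0.0139). The SEL1L call was lost with DESeq2 and when shNEDD9 replicate 2 (edgeR adjusted p = 0.0876) or shNTC replicate 3 (edgeR adjusted p = 0.0756) was left out, and the 14 refits put it between 0.00395 and 0.0876. The ratio of SYVN1 to SEL1L per kilobase was 1.496, 1.45 and 1.44 in shNEDD9, against 2.17, 2.34 and 2.22 in shNTC, and that of HERPUD1 to SYVN1 was 1.19 ± 0.03 in shNEDD9 and 0.56 ± 0.02 in shNTC (SD, n = 3 each).

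The EDEM genes encode proteins that trim mannose from misfolded glycoproteins. EDEM1 (chromosome 3, 5187646 to 5219957) had 53.7, 48.1 and 52.5 CPM in shNEDD9, against 82.7, 82.3 and 86.4 CPM in shNTC, and fell by 0.71 on the log2 scale (SE 0.06, edgeR adjusted p = 7.91e-31). EDEM3 fell by 0.19 (SE 0.06, edgeR adjusted p = 0.00653, range 0.00282 to 0.0922 over the refits), a call that was lost without shNTC replicate 3 (edgeR adjusted p = 0.0922) and with DESeq2. EDEM2 had 17.3, 16.2 and 15.1 CPM in shNEDD9, against 12.6, 12.9 and 18.2 CPM in shNTC, overlapped between groups and was not called (edgeR adjusted p = 0.385, log2 fold change 0.12). EDEM2 passed without shNTC replicate 3 (log2 fold change 0.33, edgeR adjusted p = 0.0398) and turned to -0.03 without shNTC replicate 1 (edgeR adjusted p = 0.871), so its value rests on single shNTC libraries.

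Derlins are membrane proteins of the retrotranslocation step. DERL1 fell by 0.26 (SE 0.05), at 89.6 ± 7.20 CPM in shNEDD9 and 106.2 ± 4.77 CPM in shNTC (SD, n = 3 each), and DERL2 was not called (edgeR adjusted p = 0.231, log2 fold change 0.12). DERL3 had 10, 11 and 13 counts in shNEDD9, against 5, 0 and 3 counts in shNTC, and was too low for the test. Of its 3796 exon bases, 2923 overlap SMARCB1 on the opposite strand, which has 5190 counts, and with the strand setting of the counting not given, reads of SMARCB1 and DERL3 cannot be told apart. SELENOK, a selenoprotein that binds derlins, had 27.9, 23.9 and 31.5 CPM in shNEDD9, against 43.0, 40.8 and 44.0 CPM in shNTC, and fell by 0.62 (SE 0.08).

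Translocation genes went both ways, with 5 of 12 higher and 6 lower (35.5% and 35.9% of all tested genes). The channel has the subunits SEC61A1, SEC61B and SEC61G. SEC61A1 (chromosome 3, 128051641 to 128071683), the pore, had 316.0, 323.9 and 322.0 CPM in shNEDD9, against 349.1, 352.5 and 332.9 CPM in shNTC, and fell by 0.10 (SE 0.03, edgeR adjusted p = 0.00212, range 0.000682 to 0.0532, the highest without a count filter). SEC61B had 41.8, 42.1 and 43.4 CPM in shNEDD9, against 58.5, 53.4 and 54.8 CPM in shNTC, and fell by 0.40 (SE 0.07). SEC61G had 57.1, 64.9 and 60.4 CPM in shNEDD9, against 45.05, 45.6 and 46.0 CPM in shNTC, and rose by 0.42 (SE 0.07). The ratio of SEC61G to SEC61B per kilobase was 0.93 ± 0.06 in shNEDD9 and 0.53 ± 0.03 in shNTC (SD, n = 3 each).

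The 4 SSR genes encode the TRAP complex, which sits beside the channel and helps certain signal sequences to enter. SSR2 rose by 0.22 (SE 0.05), SSR3 by 0.22 (SE 0.04) and SSR4 by 0.33 (SE 0.04), with all shNEDD9 libraries above all shNTC libraries in each. The groups did not overlap, in either direction, in 71.8% of all tested genes. SSR1 had 43.7 ± 4.74 CPM in shNEDD9 and 41.1 ± 4.004 CPM in shNTC (SD, n = 3 each) and was not called (edgeR adjusted p = 0.116, log2 fold change 0.13), though it passed without shNEDD9 replicate 1 (edgeR adjusted p = 0.0248, range 0.0248 to 0.793 over the refits). For SSR4 the pseudogene SSR4P1, with 465 counts against 7804, may share reads.

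Signal peptidase cuts signal sequences off. Its subunit gene SPCS3 (chromosome 4, 176319964 to 176332245) had 22.2, 17.6 and 20.3 CPM in shNEDD9, against 39.1, 31.4 and 32.6 CPM in shNTC, and fell by 0.82 (SE 0.09, edgeR adjusted p = 4.70e-18), the largest change of the translocation genes. SPCS1 fell by 0.17 (SE 0.04), and its exons share 2698 of 5324 bases with NEK4 on the opposite strand, which was not called (log2 fold change 0.02), and 397 with GLT8D1, which fell by 0.58. Other opposite-strand overlaps with counted genes include DERL1 (396 bases with TBC1D31, which rose by 1.54), SEC61A1 (344 bases with RUVBL1, which rose by 0.99), DERL2 (301 bases with MIS12, which rose by 0.46) and DNAJB9 (183 bases with THAP5, which rose by 0.55). SSR4 shares 278 bases with IDH3G, which fell by 0.18, and PDIA6 shares 1033 bases with ATP6V1C2, which was not called. The part of these neighbours in the values was not tested. SPCS2 stood at 25.2 ± 0.70 CPM in shNEDD9 and 21.3 ± 2.02 CPM in shNTC (log2 fold change 0.22, edgeR adjusted p = 0.0437). The SPCS2 call was lost in 5 of 6 fits that leave out 1 library (all but that without shNTC replicate 3), with DESeq2 and without a count filter, and its adjusted p ranged from 0.0226 to 0.164. TRAM1, a membrane protein beside the channel, fell by 0.25 (SE 0.05), and OSTC, an oligosaccharyltransferase subunit, fell by 0.23 (SE 0.09, edgeR adjusted p = 0.0126, range 0.0107 to 0.100), which did not hold without shNTC replicate 1 (edgeR adjusted p = 0.100), with DESeq2 or without a count filter.

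SEC24D, a cargo-selecting subunit of the COPII coat (ENSG00000150961, chromosome 4, 118722823 to 118838683), was the only one of the 44 tested genes with a change of at least 2-fold, against 16.9% of all tested genes. It had 31.4, 28.996 and 25.8 CPM in shNEDD9, against 67.0, 63.8 and 64.9 CPM in shNTC, a 2.32-fold decrease (log2 fold change -1.21, SE 0.07, edgeR adjusted p = 1.39e-59). Its paralogs SEC24A, SEC24B and SEC24C fell by 0.66, 0.44 and 0.20 on the log2 scale (SE 0.06, 0.06 and 0.05). SEC24D held 7.17 ± 0.75% of the family's summed CPM per kb in shNEDD9 and 11.98 ± 0.37% in shNTC, and that sum was 40.4 ± 0.59 CPM per kb in shNEDD9 and 54.9 ± 0.58 in shNTC (SD, n = 3 each).

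The genes whose promoters are printed above did not form 1 direction. Of the 10, 7 rose, 2 fell (HSPA5 and ERO1B) and CRELD2 was not called, with a median log2 fold change of 0.37. Of all tested genes, 35.5% rose and 35.9% fell. Of the 28 tested members whose window held no exact match to either element, 12 rose and 12 fell, with a median of 0.11. Elements that depart from the searched letters or lie outside the window were not counted, so some of the 28 may hold one. Another 15 tested genes outside the 45 held an ERSE or ERSE-II, of which 5 rose and 6 fell (median -0.13). Among these were SERP1, a small protein of the translocon, which rose by 0.18 (SE 0.04), and FICD, an enzyme that modifies BiP, which fell by 0.65 (SE 0.16), and both were picked for their ER roles after their values were seen.

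**Figure D4:**
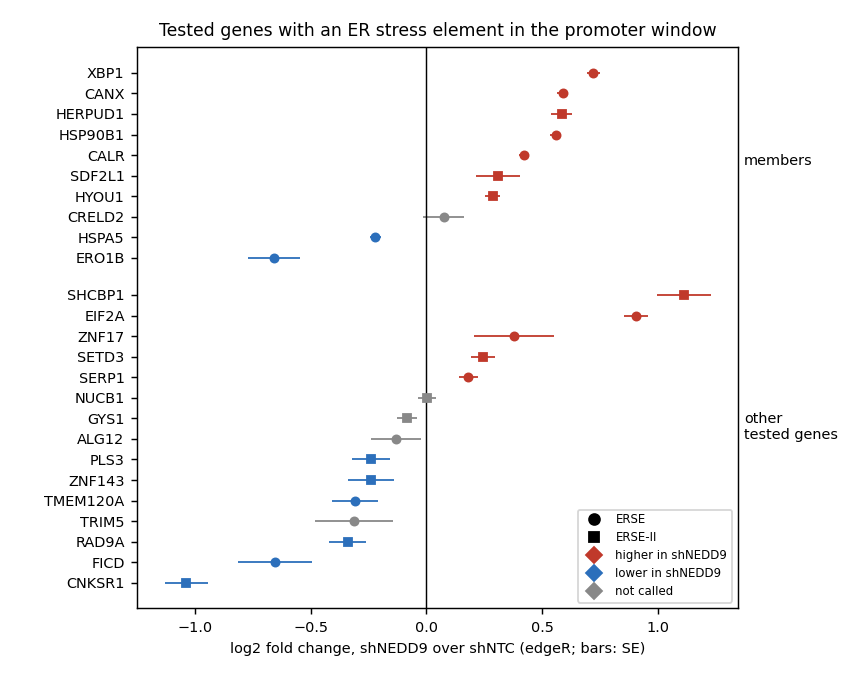
Log2 fold change, shNEDD9 over shNTC (x axis, edgeR, bars are SE), of the 25 tested genes with an ERSE (circles) or ERSE-II (squares) in the promoter window, members above and other genes below. Genes of both sets lie on both sides of 0, with HSPA5 at -0.22 and HSP90B1 at 0.56.

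Other genes of the same pathways were read from 7 lists chosen by function, with earlier results of these data known. The counts below stand against 35.5% of all tested genes called higher and 35.9% called lower. Of 43 tested folding and glycan processing factors outside the 45, 19 rose and 16 fell (median log2 fold change 0.05). The disulfide-forming oxidase gene QSOX1 was 3.62-fold lower, at 65.3 ± 3.43 CPM in shNEDD9 and 233.5 ± 5.27 CPM in shNTC, the prolyl isomerase gene FKBP2 was 2.08-fold lower, and the thioredoxin-like gene TXNDC12 was 2.34-fold higher at 16.5 ± 0.32 against 7.25 ± 1.69 CPM (SD, n = 3 each). Of 40 other ERAD factors, 25 fell and 9 rose (median -0.23). SEL1L3, whose part in ERAD was not tested here, was 3.32-fold lower. VCP, the ATPase that pulls ERAD substrates out of the membrane, was 1.57-fold lower (575.9 ± 24.9 against 905.8 ± 22.8 CPM), and the deubiquitinase gene YOD1 rose 1.49-fold. All 6 of these changes passed (edgeR, largest adjusted p = 3.38e-05).

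Of 36 other translocation factors, 20 rose and 6 fell (median 0.23), and 3 fell in the fit without a count filter. EMC9, a subunit of the ER membrane protein complex, rose 2.15-fold, while TRAM2, the paralog of TRAM1, was 2.25-fold lower, and SEC11C, a catalytic subunit of signal peptidase, was 1.89-fold lower. Its paralog SEC11A rose by 0.61 on the log2 scale (SE 0.04), so that SEC11A held 78.8 ± 1.36% of their summed CPM per kb in shNEDD9 and 56.0 ± 1.247% in shNTC (SD, n = 3 each). Of 11 other oligosaccharyltransferase subunits, 4 rose and 2 fell (median 0.04). DDOST rose by 0.51, STT3A by 0.29 and RPN1 by 0.23. The 2 that fell, named after their values were seen, were KRTCAP2 at a low level (2.40 ± 0.79 CPM in shNEDD9 and 3.91 ± 0.13 CPM in shNTC, SD, n = 3 each, log2 fold change -0.64) and OST4 (log2 fold change -0.13), and other settings called 0 to 2 of the 11 lower. Of 24 other COPII and ER exit genes, 3 rose and 15 fell (median -0.15). SEC31A, a subunit of the outer coat, was 2.18-fold lower, MIA3, which packs large cargo, 2.16-fold lower and KDELR3, a receptor that returns chaperones to the ER, 1.95-fold lower.

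**Figure D5:**
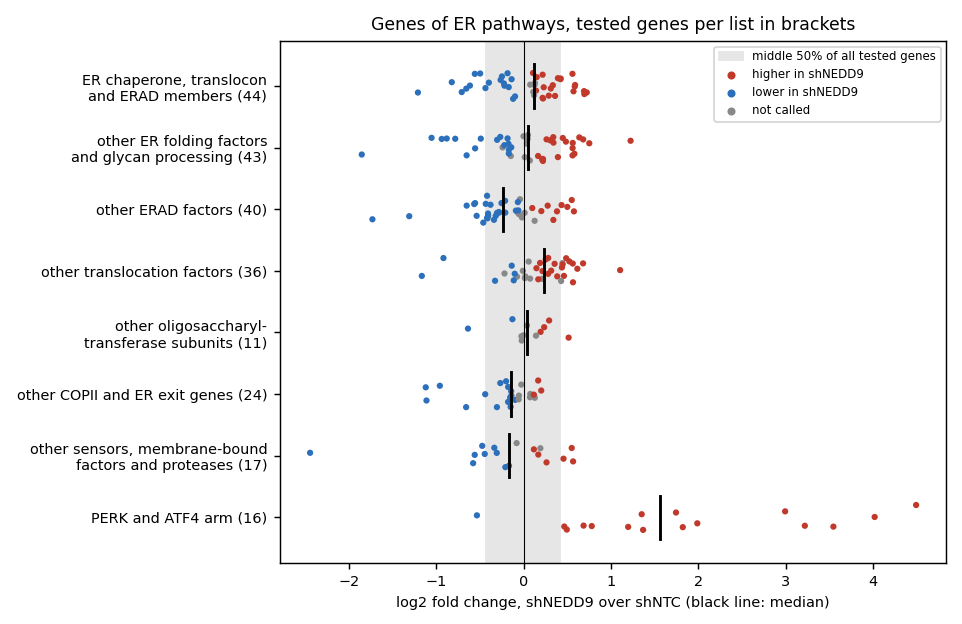
Log2 fold change, shNEDD9 over shNTC (x axis), of single tested genes in the 45-gene set and 7 other ER lists, with the number of tested genes in brackets, a black line at each median and a grey band for the middle 50% of all tested genes. The medians of the first 7 rows lie between -0.23 and 0.23, and that of the PERK and ATF4 arm lies at 1.56.

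Of 17 tested genes for other sensors, membrane-bound factors and their proteases, 6 rose and 9 fell (median -0.17). EIF2AK3, which encodes PERK, fell by 0.58 on the log2 scale (SE 0.08), at 27.9, 31.5 and 32.5 CPM in shNEDD9, against 49.2, 39.9 and 46.3 CPM in shNTC. CREB3L1, an ER-bound transcription factor related to ATF6, was 5.45-fold lower, at 10.95 ± 0.10 CPM in shNEDD9 and 59.3 ± 2.37 CPM in shNTC (SD, n = 3 each). NFYB, a subunit of the factor NF-Y that binds the CCAAT part of the ERSE, rose by 0.57 (SE 0.06).

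In the PERK and ATF4 arm, a list that does not hold EIF2AK3 itself, 15 of 16 genes were higher and 1 was lower, and the median log2 fold change was 1.56. The list is named for the pathway. Whether PERK, ATF4 or something else raised these genes was not tested. CHAC1, a glutathione-degrading enzyme gene, stood at 92.3 ± 3.99 CPM in shNEDD9 and 4.14 ± 0.57 CPM in shNTC, SESN2 at 106.2 ± 5.69 and 9.05 ± 0.24 CPM, and ATF3, a stress-induced transcription factor gene, at 64.4 ± 1.68 and 6.80 ± 0.52 CPM (SD, n = 3 each). The gene that fell was PPP1R15A (log2 fold change -0.54, SE 0.07), a phosphatase subunit that restores translation. In this arm 13 of 16 genes rose at least 1.5-fold, against 4 of the 44 tested members (17.2% of all tested genes rose by that much).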

How the data were processed

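Per the labels' protocols, column-purified total RNA went into stranded libraries. Values in the deposited table are raw counts of reads for each gene, with no scaling by the authors. Per the submitters' processing notes, the tools were STAR 2.5.3a, Subread 1.6.2 with featureCounts, cutadapt 1.9 and FastQC 0.11.5, and the builds hg19 and GRCh38 are named. For annotation release and strand setting, the sources used here give nothing. All 58735 identifiers occur in GENCODE 29 (GRCh38), the source of coordinates and exon lengths. 1 blank row was left out, and 27 symbols turned into dates were restored.

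Groups follow the sample titles. All genes were fitted with edgeR 4.0.16 in R 4.3.3 (TMM, filterByExpr with a minimum count of 10, robust glmQLFit, glmQLFTest), with Benjamini-Hochberg adjustment over 13958 genes and calls at an adjusted p under 0.05. SE is an absolute log2 fold change computed without a prior count (a small count added to steady low values), divided by the square root of F. The printed log2 fold changes are those of glmQLFTest with its default prior count. CPM per kb is CPM divided by the union of annotated exons. The 14 refits named in the text use other scaling factors, other count filters, DESeq2 1.42.0, limma-voom (limma 3.58.1), the replicate number as a block, or 1 library fewer. Within a group, pairs of libraries differed only slightly beyond sampling noise (chi-square per degree of freedom 1.14 to 1.20). Each library was used as 1 replicate, and these values cannot show whether the libraries are independent. A count of 3 equals 0.303 to 0.932 CPM across libraries (counting error only).

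The members and the lists were chosen with earlier results of these data known. Per-library values are given for HSPA5, HSP90B1, XBP1, ATF6, ERN1, HERPUD1, SEL1L and SEC61A1, and for up to 3 called members per role that changed most among those averaging 5 CPM or more. Per-library values of ERO1A, SYVN1 and EDEM2 were added after their values were seen. From each other list, up to 3 called genes were taken in the same way. Promoter sequences are RefSeq's (GRCh38.p14).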

Additional observations from a re-analysis of the deposited data

How the results depend on the processing

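Over the 14 refits, 583 of 616 member values kept direction and side of the threshold, 30 lost the call, 2 gained it and 1 reversed (EDEM2, log2 fold change -0.0282 without shNTC replicate 1, and 0.331 without shNTC replicate 3). Leaving out 1 library gave 19 to 22 members higher and 15 to 18 lower, and the median member log2 fold change ranged from 0.11 to 0.13. DESeq2 called 19 higher and 14 lower. After a fit on transcript length and GC content was subtracted, that median was 0.0603, against 0.12 without it. With the replicate number as a replicate block, 21 members were higher and 17 lower, and MANF alone lost its call (edgeR adjusted p = 0.0741). Same-numbered libraries deviated with correlations of -0.05, -0.01 and 0.01. As the spread within groups was close to counting noise, these values show no pairing and cannot exclude it.

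Requiring at least 1.5-fold left 4 members higher and 5 lower, and 2400 and 2602 of all genes. It left 4 higher and 6 lower among folding factors, 0 and 3 among ERAD factors, 3 and 2 among translocation factors, 0 and 1 among oligosaccharyltransferase subunits, 0 and 4 among ER exit genes, 0 and 1 among sensors, and 0 lower in the ATF4 arm. The lower oligosaccharyltransferase subunits, 2 in the text, numbered 1 with upper-quartile factors, library totals or limma-voom, 0 with DESeq2 (0 at an unadjusted p under 0.05), 0 in edgeR without a count filter (1 at an unadjusted p under 0.05), and 0 to 2 with 1 library left out (in the edgeR fits with 0, 0 or 1 at an unadjusted p under 0.05). The lower translocation factors numbered 3 without a count filter, and the higher ER exit genes ranged from 3 to 5 with 1 library left out. The cause of these shifts was not tested. In DERL3, with 42 counts in all, no count filter gave a log2 fold change of 1.59 (edgeR adjusted p = 0.0103).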

Other observations

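Some partners in 1 enzyme or complex outside the 45 genes moved together and some did not (genes picked from the lists after their values were seen). Both subunits of glucosidase II, which trims glycans for the lectin cycle, rose: GANAB stood at 778.9 ± 16.1 CPM in shNEDD9 and 593.5 ± 6.503 CPM in shNTC, and PRKCSH at 376.4 ± 6.07 CPM in shNEDD9 and 258.3 ± 16.2 CPM in shNTC (SD, n = 3 each). PRDX4, a peroxidase of the ER, rose by 0.75 on the log2 scale (SE 0.05). Of the cofactors of VCP, NPLOC4 fell by 0.56 (SE 0.03), while UFD1 stood at 80.1 ± 3.64 CPM in shNEDD9 and 83.3 ± 4.94 CPM in shNTC and was not called (edgeR adjusted p = 0.25). The ERAD ligase gene MARCH6 fell by 0.42 (SE 0.03). The proteases that release ATF6 from the membrane went opposite ways, with MBTPS1 at 126.9 ± 2.63 CPM in shNEDD9 and 173.8 ± 4.45 CPM in shNTC, and MBTPS2 at 76.8 ± 0.94 CPM in shNEDD9 and 55.5 ± 4.87 CPM in shNTC.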
